A study of Saccharomyces cerevisiae with 12 samples.

Results

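The cytosolic ribosomal proteins were the 136 genes on the array whose standard symbol was RPL or RPS followed by a number, or was RPP0, RPP1A, RPP1B, RPP2A or RPP2B, out of 6228 genes measured. They comprised 75 genes of the large (60S) subunit, 56 of the small (40S) subunit and 5 of the ribosomal stalk, counted apart from the 60S genes here. A further symbol of the family, RPL20A, was not analysed here. The data were 12 single-colour arrays of Saccharomyces cerevisiae in 4 groups of 3 cultures. WT_CTR1 was strain BY4741 over-expressing CTR1, the high-affinity copper transporter of the plasma membrane, and WT_Con was BY4741 with the empty vector. Dctr1_CTR1D300 was BY4741 deleted for ctr1 and over-expressing a truncated construct, CTR1 delta-300, and Dctr1_Con was the same deletion strain with the empty vector. All 12 cultures, controls included, grew at 30 °C and 180 rpm in medium lacking leucine from an OD600 of 0.6 for 7 h with 0.02 mM CuCl2, so no culture without added copper was compared. The labels give 3 independent experiments, and p-values measure the spread between these cultures. The vector and the promoter that drove the constructs are not given in the sources used here.

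Ribosomal proteins fold around the ribosomal RNAs to build the subunits that decode mRNA and join amino acids. In budding yeast most of them are encoded by a pair of paralogous genes, the A and the B copy, left from an ancient genome duplication. Their transcription takes up a large share of RNA polymerase II output in growing cells and rises with growth rate and nutrient supply through the TOR and protein kinase A pathways, the activators Rap1, Fhl1, Ifh1, Hmo1 and Sfp1, and repressors such as Crf1. It falls when cells are starved or stressed, as the general stress genes rise.

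Each member was read by 1 probe printed in 2 spots on every array. All 136 members were well above background on all 12 arrays, none had a saturated spot, and the brightest member spot reached 35.0% to 47.8% of the saturation value. Values below are log2 signals relative to the array's 75th percentile, so more ribosomal protein mRNA per cell and less of other mRNA cannot be told apart. A gene was called at an adjusted p under 0.05 in a limma fit to 6127 genes, and changes are given as log2 fold change ± SE (n = 3 arrays per group). Near-identical paralogs may share probe signal, so a value for 1 copy is uncertain where the other copy could bind the same probe. In this design all empty-vector arrays lay in the first column of a slide and all over-expressing arrays in the second. Construct and column therefore cannot be told apart when a construct is compared with its vector, even where both spots of a probe agree. The 2 spots of some probes disagreed between these columns. Calls of a construct against its vector are therefore also given as the number that held with each spot alone. Slide 1 held replicate 1 of every group, slide 2 the other WT arrays and slide 3 the other deletion-strain arrays.

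Labels and strain markers were set side by side first. CTR1 was at 4.76, 4.56 and 4.53 in WT_CTR1 and at -2.51, -2.53 and -2.47 in WT_Con. Its probe was below the background threshold in all 6 deletion-strain arrays, so expression of the truncated construct was not seen. Whether the probe misses the construct or the construct was not expressed cannot be told apart here. Changes given below for the truncated construct are therefore differences of the group with that label. HIS3, MET17 and URA3, which BY4741 lacks, were above that threshold on 0 of 12 arrays. LEU2, also absent from the BY4741 chromosome and needed in medium lacking leucine, was at -0.80, -1.43 and -0.14 in Dctr1_CTR1D300 and at 5.80, 5.46 and 5.50 in Dctr1_Con, and at 4.49, 4.14 and 4.42 in WT_CTR1 against 6.01, 5.69 and 5.89 in WT_Con. The mating-type lists did not sort the strain, since all 5 MATa and all 4 MATalpha genes were above background on all 12 arrays.

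As a family, the ribosomal protein genes stood highest in the 3 cultures with the truncated construct. The median of the 136 members, each taken relative to its own 12-array mean, was 0.38, 0.37 and 0.15 in Dctr1_CTR1D300 (replicates 1, 2 and 3) and -0.16, -0.01 and -0.09 in Dctr1_Con. It was -0.17, -0.07 and -0.25 in WT_CTR1 and -0.01, -0.12 and -0.02 in WT_Con. The Dctr1_CTR1D300 cultures overlapped with no other group, whereas the 3 remaining groups overlapped with one another. In the same order of replicates, 133, 134 and 110 of the 136 members lay above their own mean in Dctr1_CTR1D300, against 23, 63 and 34 in Dctr1_Con. The counts were 13, 42 and 9 in WT_CTR1 and 64, 16 and 61 in WT_Con. The median of 24 general stress genes ran the other way, at -0.71, -1.30 and -1.21 in Dctr1_CTR1D300 and 0.46, -0.08 and 0.01 in Dctr1_Con, and at 0.92, 0.06 and 0.82 in WT_CTR1 against 0.57, -0.03 and 0.39 in WT_Con. Its part in the ribosomal protein values was not tested.

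**Figure D1:**
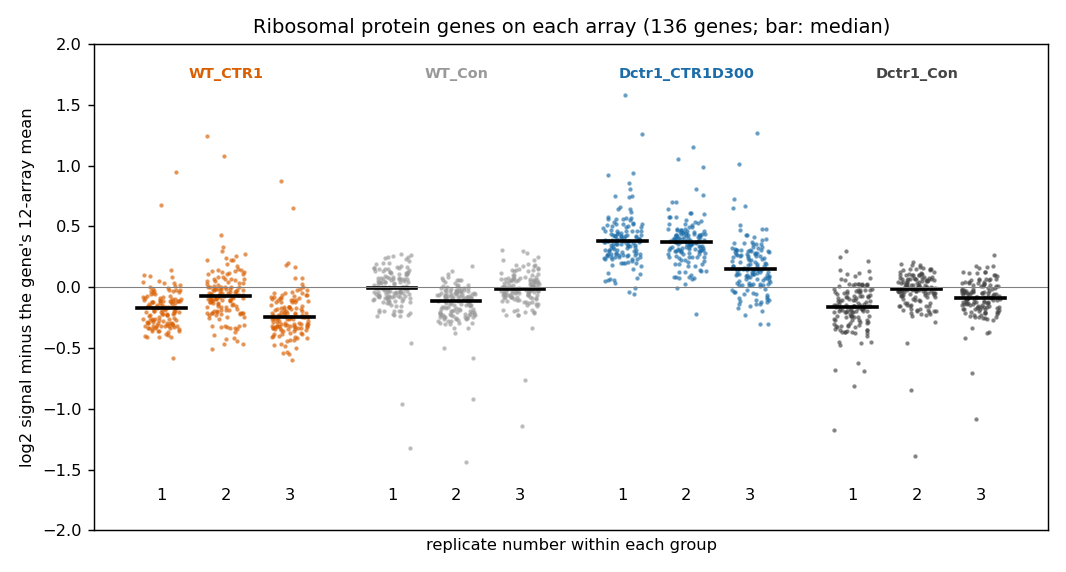
Log2 signal of each of the 136 ribosomal protein genes minus that gene's mean over 12 arrays (vertical axis), by array within the 4 groups (horizontal axis); each dot is a gene and each bar the array's median. The bars of Dctr1_CTR1D300 lie at 0.38, 0.37 and 0.15, above those of Dctr1_Con at -0.16, -0.01 and -0.09 and above all WT bars.

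The truncated construct was first compared with the empty vector within the deletion strain. In Dctr1_CTR1D300 relative to Dctr1_Con, 99 of the 136 members rose and 1, RPL15B, fell, against 24.0% of all genes tested called higher and 30.6% called lower. The members' median difference was 0.35, a 1.28-fold rise, beside -0.05 over all genes. Of the 99, 22 rose by at least 1.5-fold, against 9.86% of all genes. Groups did not overlap, with Dctr1_CTR1D300 higher, for 100 members, against 28.0% of all genes. With each spot alone 61 members were called higher and 0 lower (16.3% and 22.2% of all genes). The rise was seen within both slides that hold both groups, with a median of 0.49 on slide 1, where 131 of 136 members were positive, and of 0.29 on slide 3, where 127 were. Without slide 1 the count of members that rose was 51.

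Both subunits took part. Of the 60S genes 57 of 75 rose (median 0.38), of the 40S genes 38 of 56 (median 0.32), and of the stalk genes 4 of 5 (median 0.40). With each spot alone these counts were 34, 25 and 2. Of all genes 24.0% rose, and 16.3% with each spot alone. Among the 19 members without a paralog 9 rose, against 43 of 58 A copies and 47 of 58 B copies. With each spot alone 5 single-copy members, 23 A copies and 33 B copies rose, and the difference between these shares was not tested. The 36 members that were not called either way comprised 17 60S, 18 40S and 1 stalk gene.

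**Figure D2:**
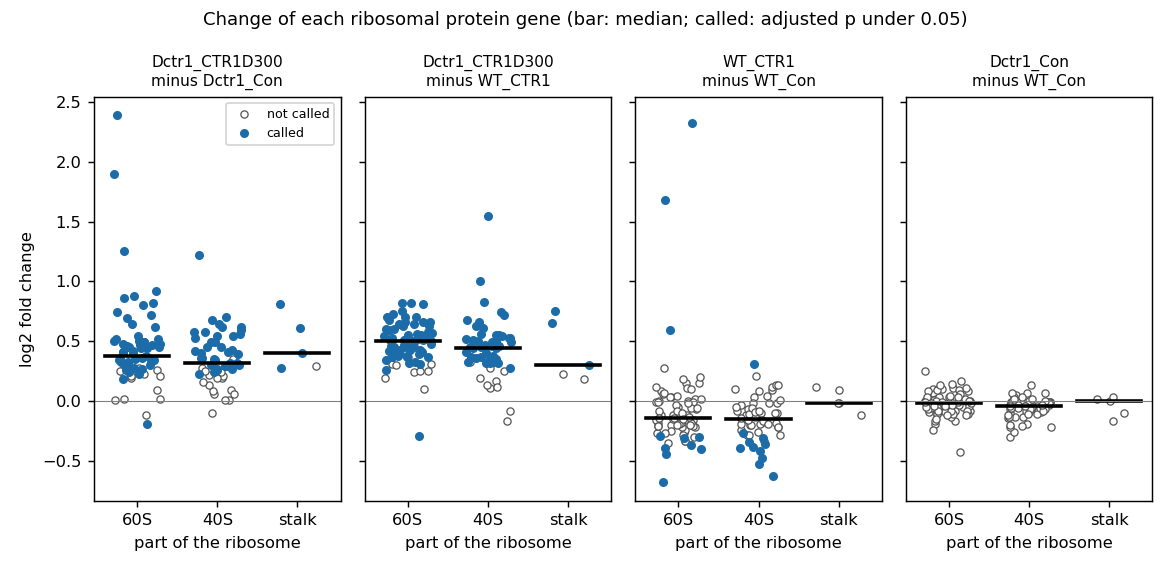
Log2 fold change of each ribosomal protein gene (vertical axis) by its place in the ribosome (horizontal axis) in 4 comparisons; filled dots passed adjusted p under 0.05 and bars are medians. The bars for Dctr1_CTR1D300 minus Dctr1_Con lie at 0.38 (60S), 0.32 (40S) and 0.40 (stalk), and no dot is filled for Dctr1_Con minus WT_Con.

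In the 40S subunit the largest rise that both spots shared was that of RPS9A, a copy of the gene for a protein that binds early in small-subunit assembly and bears on decoding accuracy. RPS9A was at 1.38, 1.49 and 1.44 in Dctr1_CTR1D300, against 0.08, 0.33 and 0.23 in Dctr1_Con. All 3 cultures with the construct lay far above the controls, which stood close to WT_Con at 0.20, 0.19 and 0.20. The change was 1.22 ± 0.07 (adjusted p = 2.39e-07), with 1.21 and 1.23 by spot. Its paralog RPS9B was at 3.80, 3.95 and 3.67 in Dctr1_CTR1D300 and 3.58, 3.73 and 3.61 in Dctr1_Con, which overlap, and did not pass (0.16 ± 0.09, adjusted p = 0.149).

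RPS6A encodes a copy of the small-subunit protein that is phosphorylated downstream of TOR. Its average rose by 0.56 ± 0.07 (adjusted p = 8.99e-05), but its spots moved in opposite directions, by -1.07 and 2.19, so no direction can be given for it. RPS31, which makes a small-subunit protein fused to ubiquitin, was at 5.57, 5.19 and 4.99 in Dctr1_CTR1D300 and 5.15, 4.94 and 5.09 in Dctr1_Con and did not pass (0.19 ± 0.13, adjusted p = 0.225).

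In the 60S subunit RPL14B was at 0.55, 0.55 and 0.41 in Dctr1_CTR1D300, against -1.07, -0.54 and -0.62 in Dctr1_Con, with no overlap. It rose by 1.25 ± 0.12 (adjusted p = 1.39e-05), and by 1.24 and 1.26 with each spot. RPL31B and RPL35B, copies of genes for proteins that line the rim of the polypeptide exit tunnel, rose by 0.88 ± 0.11 (adjusted p = 5.6e-05) and 0.82 ± 0.11 (adjusted p = 0.000164). RPL31B was at -0.73, -0.69 and -0.96 in Dctr1_CTR1D300 and -1.87, -1.52 and -1.64 in Dctr1_Con, and RPL35B was at 2.38, 2.34 and 2.06 against 1.29, 1.56 and 1.48 in the same groups. In both genes the groups were well apart. RPL7B rose by 0.86 ± 0.16 (adjusted p = 0.00108), with -4.02, -3.80 and -3.80 in Dctr1_CTR1D300 and -5.07, -4.35 and -4.78 in Dctr1_Con. Its groups did not overlap, and the highest control came closest to the construct cultures. RPL7B was dim, with the lowest values given here for any member as a mean of both spots. The lowest member signal per array was 170 to 483, against a member median of 28680 to 56354.

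RPL15B was the only member that fell. It was at -0.11, -0.30 and -0.37 in Dctr1_CTR1D300 and 0.00, -0.10 and -0.12 in Dctr1_Con, where the lowest control lay just below the highest construct culture. Its change was -0.19 ± 0.07 (adjusted p = 0.0429), and 1 of its 2 spots held the call (-0.23 with adjusted p = 0.0318, and -0.16 with adjusted p = 0.105). It was lost with median centring (-0.15, adjusted p = 0.0972) and without any 1 of 5 arrays (adjusted p of 0.119 and 0.156 without Dctr1_CTR1D300 replicate 2 or 3, and of 0.142, 0.0658 and 0.0616 without Dctr1_Con replicate 1, 2 or 3).

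The stalk is the flexible arm of acidic proteins, anchored by P0, that recruits the translation factors to the ribosome. RPP2B was at 4.59, 4.31 and 4.10 in Dctr1_CTR1D300, against 3.50, 3.51 and 3.57 in Dctr1_Con, and rose by 0.81 ± 0.11 (adjusted p = 0.000114). RPP1A was at 0.82, 0.44 and 0.37 against -0.25, -0.09 and 0.13 in the same groups and rose by 0.61 ± 0.16 (adjusted p = 0.00836). Both passed with each spot, and neither overlapped between groups. RPP1B (0.40 ± 0.12, adjusted p = 0.0144) and RPP2A (0.28 ± 0.09, adjusted p = 0.0252) also rose, though with 1 of their 2 spots only, and neither call held without Dctr1_CTR1D300 replicate 2 (adjusted p = 0.0612 and 0.0926) or without Dctr1_Con replicate 1 (adjusted p = 0.0597 and 0.1). RPP0, which encodes P0, was at 5.56, 5.26 and 5.01 against 5.13, 4.96 and 4.87 and did not pass (0.29 ± 0.13, adjusted p = 0.0911), although it did with the replicate block (adjusted p = 0.00764). RPL40A and RPL40B make a 60S protein fused to ubiquitin. RPL40B rose by 0.35 ± 0.10 (adjusted p = 0.0123), though with 1 of its 2 spots only, and not without Dctr1_CTR1D300 replicate 2 (adjusted p = 0.0503) or Dctr1_Con replicate 1 (adjusted p = 0.0527). RPL40A was at 0.21 ± 0.09 (adjusted p = 0.0639, and 0.0171 with the replicate block).

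**Figure D3:**
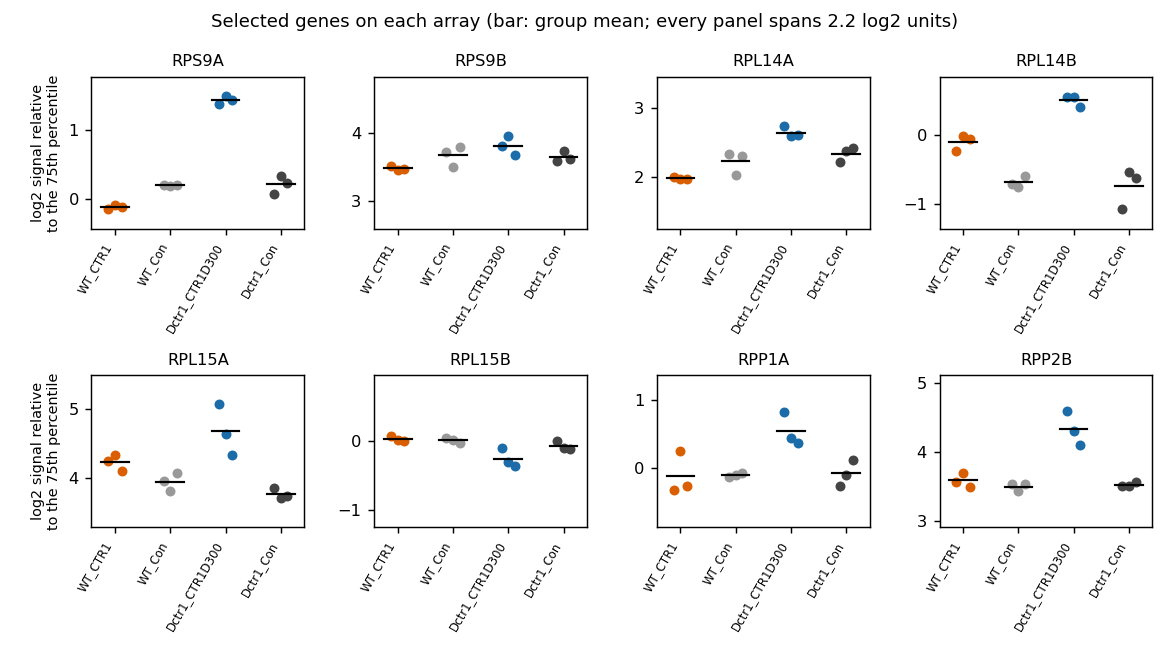
Log2 signal relative to the array's 75th percentile (vertical axis) of 8 ribosomal protein genes in the 4 groups (horizontal axis); dots are single arrays and bars group means. RPS9A and RPP2B stand apart in Dctr1_CTR1D300 (1.38 to 1.49 and 4.10 to 4.59), RPL14B is higher in both over-expressing groups than in the vector groups, and RPL15B has its lowest mean, -0.26, in Dctr1_CTR1D300.

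The second comparison set the truncated construct against full-length CTR1. Strain and construct differ together in it, so they cannot be told apart, but both groups lay in the same slide column. In Dctr1_CTR1D300 relative to WT_CTR1, 113 of the 136 members rose and 1 fell, against 24.5% of all genes called higher and 38.4% called lower. The median was 0.46, a 1.38-fold rise, beside -0.11 over all genes, and 30 members rose by at least 1.5-fold (12.0% of all genes). With each spot alone 106 rose and 1 fell (22.3% and 34.5% of all genes). No member had spots of opposite sign here, and the median gap between the spots was 0.04, against 0.17 for Dctr1_CTR1D300 minus Dctr1_Con. Slide 1, the only slide with both groups, gave a median of 0.54, with 135 of 136 members positive.

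RPS9A led again, at 1.38, 1.49 and 1.44 in Dctr1_CTR1D300 against -0.15, -0.08 and -0.11 in WT_CTR1, a rise of 1.55 ± 0.07 (adjusted p = 2.48e-08). RPS18B, which makes a protein of the small-subunit head, was at 1.74, 1.55 and 1.58 in Dctr1_CTR1D300, against 0.69, 0.64 and 0.56 in WT_CTR1, and rose by 1.00 ± 0.09 (adjusted p = 4.11e-06). RPS14B, a copy of the gene for a protein of the small-subunit platform, was at 0.32, -0.03 and -0.03 against -0.70, -0.85 and -0.69 and rose by 0.83 ± 0.11 (adjusted p = 7.68e-05). In all 3 genes every Dctr1_CTR1D300 culture was above every WT_CTR1 culture.

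Among the 60S genes, RPL11B, whose protein joins the ribosome in a complex with the 5S RNA, was at 1.09, 1.24 and 1.05 in Dctr1_CTR1D300 and 0.25, 0.44 and 0.22 in WT_CTR1 and rose by 0.82 ± 0.10 (adjusted p = 2.98e-05). RPL7B rose by 0.82 ± 0.16 (adjusted p = 0.00109) and RPL17B, a copy of an exit tunnel protein's gene, by 0.81 ± 0.07 (adjusted p = 4.8e-06). RPL15B was again the only member to fall, with -0.11, -0.30 and -0.37 in Dctr1_CTR1D300 and 0.07, 0.01 and 0.00 in WT_CTR1. These groups did not overlap, both spots held the call, and the change was -0.29 ± 0.07 (adjusted p = 0.00485). In the stalk RPP2B (0.75 ± 0.11, adjusted p = 0.000135) and RPP1A (0.65 ± 0.16, adjusted p = 0.005) rose. RPP2A rose by 0.30 ± 0.09 (adjusted p = 0.0148), but not without Dctr1_CTR1D300 replicate 2 or WT_CTR1 replicate 1 or 3 (adjusted p of 0.059, 0.0546 and 0.0638). RPP0 (0.23 ± 0.13, adjusted p = 0.151) and RPP1B (0.18 ± 0.12, adjusted p = 0.211) did not pass. Of the ubiquitin fusions, RPL40A (0.41 ± 0.09, adjusted p = 0.00184) and RPL40B (0.56 ± 0.10, adjusted p = 0.000692) rose, and RPS31 was at 0.25 ± 0.13 (adjusted p = 0.112).

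The third comparison asked what full-length CTR1 changed in wild type. In WT_CTR1 relative to WT_Con, 18 of the 136 members fell and 4 rose, against 6.02% of all genes called lower and 7.25% called higher. The median was -0.13, a fold of 0.912, beside 0.02 over all genes. The fit that gave these counts, like the main fit throughout, held no replicate block. The numbers were taken to pair these groups, and with the replicate block 37 members fell, against 12.4% of all genes. Groups did not overlap, with WT_CTR1 lower, for 44 members (13.7% of all genes), and with WT_CTR1 higher for 8 (1043 of the 6127 genes). With each spot alone 5 fell and 1 rose (3.31% and 2.94% of all genes). The median was -0.20 on slide 1 and -0.10 on slide 2. The count of members that fell was 10 and 8 without WT_CTR1 replicate 1 and 3, 9 without WT_Con replicate 1 and also 9 without WT_Con replicate 3, and 2 without slide 1.

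The 5 genes that fell with each spot were RPS1A, RPL19A, RPS21A, RPS9A and RPS24A, all of them A copies. RPS1A was at 2.53, 2.42 and 2.37 in WT_CTR1, against 3.14, 2.97 and 3.09 in WT_Con, with no overlap, and fell with a change of -0.63 ± 0.11 (adjusted p = 0.00495). RPL19A was at 1.37, 1.41 and 1.32 in WT_CTR1 and 1.80, 1.67 and 1.79 in WT_Con and fell with a change of -0.39 ± 0.07 (adjusted p = 0.00363). RPS21A, whose protein lies beside that of RPS0 on the small subunit, was at -0.39 ± 0.11 (adjusted p = 0.0312), RPS9A at -0.31 ± 0.07 (adjusted p = 0.0122) and RPS24A at -0.27 ± 0.07 (adjusted p = 0.0223). The calls of RPS21A and RPS24A were each lost without WT_CTR1 replicate 1 or 3 or WT_Con replicate 1 or 3 (adjusted p of 0.0988 to 0.113 for RPS21A and 0.0657 to 0.0874 for RPS24A). None of the 5 stalk genes was called (RPP0 -0.12, RPP1A -0.02, RPP1B 0.12, RPP2A -0.02 and RPP2B 0.09), nor were RPS31 (-0.19), RPL40B (-0.16) and RPL40A (-0.21, adjusted p = 0.138, and 0.0352 with the replicate block).

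The 4 members called higher were RPL14B, RPL41A, RPL41B and RPS23A. RPL14B was at -0.23, -0.01 and -0.06 in WT_CTR1, against -0.71, -0.76 and -0.60 in WT_Con, and rose by 0.59 ± 0.12 (adjusted p = 0.0104) with both spots. It also rose with the truncated construct. As for every member in a comparison of a construct with its vector, the construct and the slide column cannot be told apart in it. RPS23A, a copy of the gene for a protein of the decoding centre, was at 0.31 ± 0.08 (adjusted p = 0.02) on average but at -0.19 and 0.83 by spot.

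RPL41A and RPL41B encode a very short basic protein of the 60S subunit and showed the widest gap between spots. The lower-numbered spot of RPL41A was at 0.85, 0.45 and 0.45 in Dctr1_CTR1D300 and -3.40, -4.57 and -4.14 in Dctr1_Con, and at 0.17, 0.57 and 0.09 in WT_CTR1 and -4.77, -4.84 and -4.37 in WT_Con. Its higher-numbered spot was at 0.52, 0.09 and 0.32 in Dctr1_CTR1D300 and 0.26, 0.01 and 0.18 in Dctr1_Con, and at -0.03, 0.15 and -0.10 in WT_CTR1 and 0.33, 0.19 and 0.29 in WT_Con. Thus 1 spot was dim in both vector groups and the other was not. RPL41A averaged 2.39 ± 0.18 with the truncated construct and 2.32 ± 0.18 with CTR1, but its higher-numbered spot gave 0.16 and -0.26. RPL41B averaged 1.90 ± 0.16 and 1.68 ± 0.16, with -0.10 and -0.38 for that spot. Between Dctr1_CTR1D300 and WT_CTR1, which share a column, neither was called (RPL41A 0.31 ± 0.18, adjusted p = 0.145; RPL41B 0.19 ± 0.16, adjusted p = 0.326).

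Such disagreement was not confined to RPL41. Spots had opposite signs for 13 members in Dctr1_CTR1D300 minus Dctr1_Con and for 47 in WT_CTR1 minus WT_Con, and differed by more than 1 for 8 and 9 members. RPL15A, whose average rose by 0.92 ± 0.15 with the truncated construct (adjusted p = 0.000543), had 0.09 in 1 spot and 1.75 in the other. RPL21B averaged 0.62 ± 0.10 (adjusted p = 0.0005), from 1.49 and -0.24. With CTR1, RPS0B averaged -0.53 ± 0.10 (adjusted p = 0.00584), from 0.02 and -1.05.

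**Figure D4:**
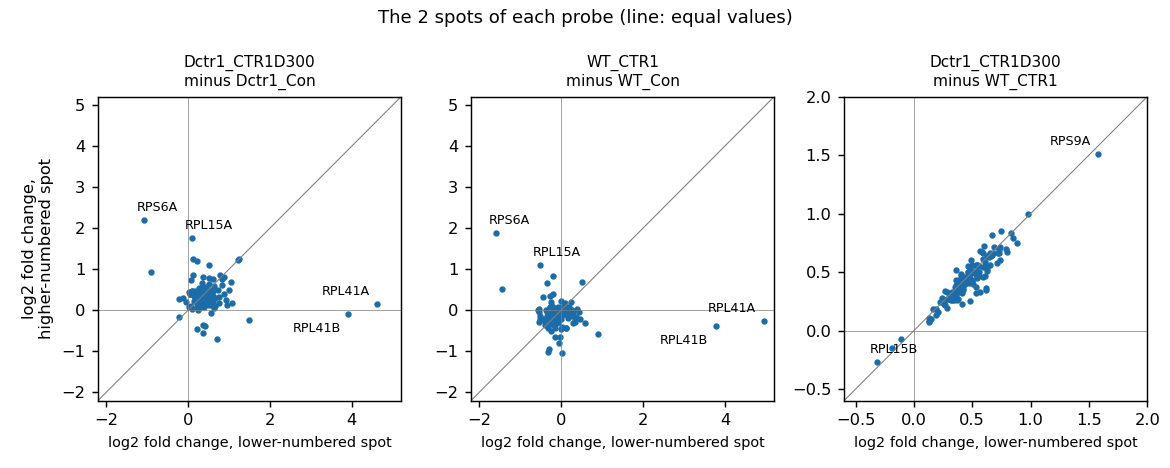
Log2 fold change of the lower-numbered (horizontal) and the higher-numbered spot (vertical) of each ribosomal protein gene's probe in 3 comparisons; the diagonal marks equal values. RPL41A, RPL41B, RPS6A and RPL15A lie far off the diagonal in both construct comparisons, whereas the spots of Dctr1_CTR1D300 minus WT_CTR1 lie close to it, with a median gap of 0.04.

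The empty-vector strains, which differ by the CTR1 deletion, were compared next. In Dctr1_Con relative to WT_Con 0 of the 136 members were called by limma, with or without the replicate block, against 0.326% of all genes called higher and 0.163% called lower. At an unadjusted p under 0.05 there were 2 members, against 8.57% of all genes. They were RPL22B (-0.43 ± 0.18, adjusted p = 0.526) and RPS27A (-0.30 ± 0.13, adjusted p = 0.53). The median was -0.04, beside -0.03 over all genes, and members ranged between -0.43 and 0.25. Groups did not overlap, with Dctr1_Con lower, for 7 members (11.3% of all genes), and higher for 0 (3.61%). On slide 1 alone the median was -0.15, with 4 of 136 members positive.

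The difference between the effects of the constructs was tested as the interaction, the change with CTR1D300 minus the change with CTR1. Here an effect of the slide column cancels only if it is equal on the slides of both strains, which was not tested. For RPL41A the interaction was -0.32 with the lower-numbered spot and 0.42 with the higher-numbered spot. The interaction was called positive for 104 of the 136 members and negative for 0, against 19.7% of all genes called higher and 26.7% called lower, and 83 members passed with each spot (16.2% of all genes). The median was 0.49, beside -0.07 over all genes, and 31 of the 104 reached 1.5-fold (11.8% of all genes). For some of the 104, among them RPL3 (-0.12 with CTR1D300 and -0.68 with CTR1), a positive interaction came with a smaller change for CTR1D300. These RPL3 values are averages, and by spot its change with CTR1 was -0.32, which was not called, and -1.01. On slide 1 alone the median was 0.71, with 134 of 136 members positive, and without slide 1 39 members were called, with a median of 0.39. RPS9A had the largest interaction, 1.53 ± 0.10 (adjusted p = 8.15e-07), from 1.22 with CTR1D300 and -0.31 with CTR1. RPL22B followed with 1.13 ± 0.26 (adjusted p = 0.00496) and RPL7B with 1.06 ± 0.23 (adjusted p = 0.00328). RPL22B was at -0.99, -0.50 and -0.87 in Dctr1_CTR1D300 and -1.94, -1.20 and -1.64 in Dctr1_Con. It was at -1.55, -1.57 and -1.35 in WT_CTR1 against -1.19, -1.33 and -0.96 in WT_Con. The order of the groups thus turned between strains, but its change with CTR1 was not called (-0.33 ± 0.18, adjusted p = 0.282). RPL14B, which rose with both constructs, had an interaction of 0.66 ± 0.18 (adjusted p = 0.011). In the stalk RPP2B (0.72 ± 0.15, adjusted p = 0.00325) was called. RPP1A was too (0.63 ± 0.23, adjusted p = 0.0432), but that call was lost without any 1 of 9 arrays (adjusted p of 0.0552 to 0.102). RPP0 was at 0.40 ± 0.19 (adjusted p = 0.104, and 0.00896 with the replicate block). RPL15B was the only member below 0 (-0.21 ± 0.10, adjusted p = 0.113, and 0.0287 with the replicate block).

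Duplicated genes were also counted as pairs, though near-identical copies may share probe signal. Of the 58 A and B pairs, both copies rose in Dctr1_CTR1D300 relative to Dctr1_Con in 33 and only 1 copy rose in 24. Relative to WT_CTR1 both rose in 46 and only 1 in 8. Of all genes taken singly, 24.0% and 24.5% were called higher in these comparisons. Taken singly, 74.1% of A copies and 81.0% of B copies rose relative to Dctr1_Con, and 84.5% and 87.9% relative to WT_CTR1. Whether copies of a pair rose together more often than these shares give was not tested. The median absolute difference between the changes of the 2 copies was 0.22 and 0.12 in these comparisons. Differences between copies were not tested. Among pairs whose 4 spot pairings had 1 sign, the A change of RPS9 was 1.06 ± 0.09 (SE) above its B change relative to Dctr1_Con, between 0.97 and 1.14 by spot pairing, and 1.23 ± 0.09 above it relative to WT_CTR1. RPL15 had a gap of 1.11 ± 0.12 relative to Dctr1_Con, between 0.24 and 1.97 by spot pairing, and of 0.74 ± 0.12 relative to WT_CTR1. In RPL14 the B copy changed more relative to Dctr1_Con, by 0.94 (A minus B -0.94 ± 0.11), and with CTR1 in WT (-0.83 ± 0.11), but not relative to WT_CTR1 (0.06 ± 0.11), where the column is shared. RPP2 had the B copy ahead in both (-0.53 ± 0.11 and -0.45 ± 0.11), and RPL7 had -0.59 ± 0.20 and -0.12 ± 0.20. With CTR1 in WT the gaps of the remaining named pairs were smaller, at -0.42 ± 0.10 for RPL26, -0.39 ± 0.14 for RPS27, -0.38 ± 0.06 for RPS16 and -0.36 ± 0.09 for RPL19.

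**Figure D5:**
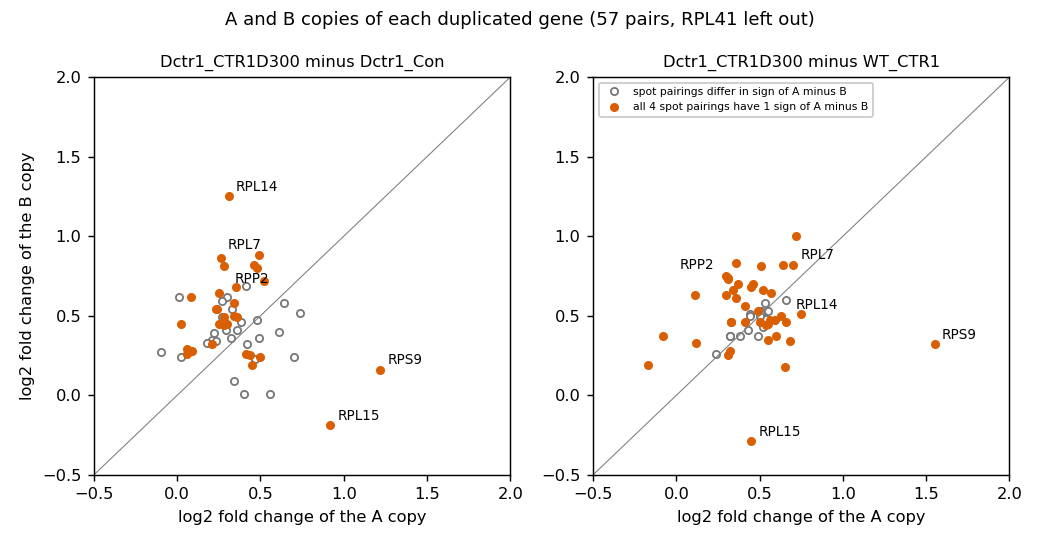
Log2 fold change of the A copy (horizontal) and the B copy (vertical) of each duplicated ribosomal protein gene, without RPL41, in 2 comparisons; the diagonal marks equal changes, and filled dots are pairs whose 4 spot pairings give A minus B the same sign. RPS9 and RPL15 lie below the diagonal in both panels, and RPL14 moves onto it relative to WT_CTR1.

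Genes that act on the ribosomal proteins were read next. Of 8 chaperones that each escort 1 or a few newly made ribosomal proteins, 7 rose in Dctr1_CTR1D300 relative to Dctr1_Con (median 0.59). The share of all genes was 24.0%, and with each spot alone 6 rose, against 16.3% of all genes. Relative to WT_CTR1 8 rose (median 0.84), against 24.5% of all genes. In WT_CTR1 relative to WT_Con 0 were called (median -0.28), against 7.25% of all genes called higher and 6.02% called lower. SYO1, which brings Rpl5 and Rpl11 into the nucleus, was at 0.43, 0.66 and 0.52 in Dctr1_CTR1D300 and -0.88, -0.06 and -0.35 in Dctr1_Con and rose by 0.97 ± 0.28 (adjusted p = 0.0127). BCP1, the chaperone of Rpl23, rose by 0.86 ± 0.20 (adjusted p = 0.00404), TSR2 of Rps26 by 0.70 ± 0.17 (adjusted p = 0.00546) and SQT1 of Rpl10 by 0.63 ± 0.13 (adjusted p = 0.00188). RRB1, the chaperone of Rpl3, rose by 1.00 ± 0.19 relative to WT_CTR1 (adjusted p = 0.000848).

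Of 14 regulators of these genes, 7 rose and 4 fell relative to Dctr1_Con (median 0.20), which is 50.0% and 28.6% of the list against 24.0% and 30.6% of all genes. With each spot alone 4 rose and 2 fell. Relative to WT_CTR1 5 rose and 4 fell (median 0.11), which is 35.7% and 28.6% against 24.5% and 38.4% of all genes. In this list of 14 the share that fell was near that of all genes relative to Dctr1_Con and below it relative to WT_CTR1. Neither difference was tested. CRF1, a corepressor, was at -2.75, -3.21 and -3.25 in Dctr1_CTR1D300, against -4.21, -4.54 and -4.56 in Dctr1_Con, and rose by 1.37 ± 0.16 (adjusted p = 4.06e-05). TOD6, a repressor of ribosome biogenesis genes, rose by 1.07 ± 0.26 (adjusted p = 0.00476) and MRS6, which binds Sfp1, by 0.60 ± 0.06 (adjusted p = 1.85e-05). HMO1 rose by 0.62 ± 0.08 (adjusted p = 7.43e-05), and by 0.50 ± 0.08 in WT_CTR1 relative to WT_Con (adjusted p = 0.0021), where it was the only regulator called. Neither HMO1 call held with each spot. IFH1, the coactivator, rose by 0.68 ± 0.14 relative to WT_CTR1 (adjusted p = 0.00122), and YAK1, a kinase set against growth, fell by 0.69 (SE 0.22, adjusted p = 0.0174). The regulators that rose thus held activators and repressors.

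Other lists were read for context in Dctr1_CTR1D300 relative to Dctr1_Con, where 24.0% of all genes rose and 30.6% fell. With each spot alone these shares of all genes were 16.3% and 22.2%. Of 53 ribosome biogenesis genes 32 rose and 0 fell (median 0.51, with 20 rises by each spot). Of 72 mitochondrial ribosomal protein genes 3 rose and 18 fell (median -0.07, with 7 falls by each spot), a share of falls below that of all genes. Of 24 general stress genes 0 rose and 21 fell (median -1.13, with 19 falls by each spot), with HXK1 (-1.89 ± 0.44), ALD3 (-1.86 ± 0.16), HSP26 (-1.81 ± 0.27) and PGM2 (-1.70 ± 0.31) lowest. Of 12 ribosome-associated proteins 3 rose and 2 fell, shares near and below those of all genes, with STM1, which binds the mRNA channel of idle ribosomes, at 0.59 ± 0.09 and the ribosome-bound Hsp70 gene SSB1 at 0.45 ± 0.08. Of 14 elongation and termination genes 5 rose and 4 fell, or 35.7% and 28.6%, but with each spot alone 0 rose and 2 fell, with ANB1, the hypoxic copy of the eIF5A gene, lowest at -0.93 ± 0.13. Of 26 initiation genes 8 rose and 3 fell (4 and 1 with each spot). Relative to WT_CTR1 21 of them rose and 0 fell, against 24.5% and 38.4% of all genes. With each spot 19 rose and 0 fell, against 22.3% and 34.5%. In that comparison GCD7, an eIF2B subunit gene, was at 0.69 ± 0.06 and SUI2, the eIF2 alpha gene, at 0.61 ± 0.06.

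With CTR1 in WT, 7.25% of all genes rose and 6.02% fell (2.94% and 3.31% with each spot alone). Of the initiation genes 0 rose and 11, or 42.3%, fell (median -0.24, with 6 falls by each spot). Among the 11 were PRT1 at -0.50 ± 0.09 and GCD11 at -0.46 ± 0.08. These falls stood beside the 18 ribosomal protein genes that fell. Of the biogenesis genes 0 rose and 1 fell (median -0.20, with 0 falls by each spot), shares below those of all genes. Of the mitochondrial ribosomal protein genes 8, or 11.1%, rose and 0 fell (median 0.05). With each spot alone 2 of them rose, a share near that of all genes. Of the stress genes YGP1 alone was called (0.57 ± 0.14), though not with each spot. The elongation factor gene HEF3 (0.69 ± 0.12) and ANB1 (0.70 ± 0.13) rose with CTR1, and SUP45, a release factor gene, fell by 0.49 (SE 0.06). Between the empty-vector strains 0 members of these 8 lists were called, against 0.326% of all genes called higher and 0.163% called lower.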

How the data were processed

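Agilent Feature Extraction 10.7.1.1 produced the deposited spot tables, per the file headers. The deposited processed signal is a background-corrected intensity per spot, not scaled between arrays, and the deposited flags (other: 0 or 1) mark spots above background, saturated or outlying. The authors' series matrix holds 5202 deposited values per array on the log2 scale with a shared column median of 11.7, and served as an alternative. The median processed signal was 1792 to 2999 per array and 96.5% to 98.9% of probes were above background. The number of arrays limits the precision.

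Each array's 75th percentile over gene probes was subtracted from log2 processed signals, the mean of a probe's 2 spots was used, and a gene took the values of its brightest probe. A filter of 3 or more arrays above background passed 6155 probes and dropped 101, which left 6127 genes and all 136 members. RefSeq's yeast gene table gave symbols to 5740 of the 6228 genes, and 488 kept their systematic name, and no coordinates are given because the array names another assembly. Group means over all 12 arrays were fitted with limma 3.58.1 in R 4.3.3, with 8 residual degrees of freedom and Benjamini-Hochberg adjustment over all genes within each of 5 comparisons. The script was tested on simulated data.

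Deviations from group means correlated between same-numbered arrays of WT_CTR1 and WT_Con (r across genes 0.750, 0.692 and 0.342), Dctr1_CTR1D300 with Dctr1_Con (0.679, 0.700 and 0.394) and Dctr1_Con with WT_Con (0.554, 0.295 and 0.134), and the labels give 3 independent experiments, so the numbers were taken to pair those arrays. In Dctr1_CTR1D300 with WT_CTR1 the values were 0.381, 0.407 and -0.03, of which only the third lay below the range for Dctr1_Con with WT_Con. Differently numbered arrays were not correlated, and replicate 1 of every group shared slide 1. These values alone therefore cannot show that same-numbered arrays came from the same experiment.

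The members and lists were chosen with earlier results of these data known, so no set was tested. Genes named were the stalk and ubiquitin fusion genes and, per comparison, up to 6 rises and 6 falls that both spots called and whose groups did not overlap. They were also up to 5 pairs per construct comparison with the widest gap, members over 0.5 whose spots had opposite signs, up to 4 called genes of each related list, and members called against the majority. Others were named after their values were seen. Alternatives tried were other scalings, normexp on the deposited median spot and background intensity (no mean signal was used), other filters and probe rules, blocks, single spots, left-out arrays and slides, and a 1.5-fold limit.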

Additional observations from a re-analysis of the deposited data

Results flagged for a closer look

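The effects of the 2 constructs differed between their strains, by limma's interaction term, for 104 of the 136 ribosomal protein genes, all of them with a higher signed change for CTR1D300 than for CTR1. A higher signed change is not always a larger one, since RPL3 was on average at -0.12 with CTR1D300 and -0.68 with CTR1. By spot the RPL3 change with CTR1 was -0.32 and -1.01. The largest was RPS9A (interaction 1.53), which rose by 1.22 with CTR1D300 and fell by 0.31 with CTR1. RPL22B followed at 1.13, from 0.80 and -0.33, RPL7B at 1.06, from 0.86 and -0.20, and RPS18B at 0.87, from 0.49 and -0.38. RPL31B was at 0.77, from 0.88 and 0.11, and RPS14B at 0.76, from 0.58 and -0.18. All 6 passed the interaction with each spot alone.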

How the results depend on the processing

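For Dctr1_CTR1D300 minus Dctr1_Con, 51 members rose without slide 1, 61 with each spot alone and 22 at 1.5-fold, against 99. The 1 fall became 2 with the authors' values and with quantile normalisation, 4 with either spot alone, and 0 with median centring, each spot or 1.5-fold. Leaving out 1 array gave 70 to 109 rises and 0 to 1 falls (medians 0.31 to 0.42), and slide 1 alone a median of 0.49. For WT_CTR1 minus WT_Con, rises were 9 and 10 with the higher- and lower-numbered spot and 1 with each, and falls 30 with the lower-numbered spot, 2 without slide 1, 5 with each spot and 2 at 1.5-fold (1 array left out: 3 to 4 rises, 8 to 24 falls, medians -0.18 to -0.09). For Dctr1_CTR1D300 minus WT_CTR1, 30 rose and 0 fell at 1.5-fold (1 array left out: 102 to 122 rises, 1 fall, medians 0.41 to 0.54). For Dctr1_Con minus WT_Con the median was -0.15 on slide 1 (1 array left out: 0 calls, medians -0.08 to 0.01). The interaction gave 39 positive calls without slide 1 and 31 at 1.5-fold, and a median of 0.39 with the authors' values, 0.40 with quantile normalisation, 0.39 without slide 1 and 0.71 on slide 1 (1 array left out: 73 to 116 positive, 0 to 1 negative, medians 0.45 to 0.54). The causes were not tested, except that the 1.5-fold limit makes fewer calls by construction. Leaving out 1 array made fewer calls in some fits and more in others.

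With the replicate block, which pairs same-numbered arrays, falls in WT_CTR1 minus WT_Con were 37 in place of 18, and rises in Dctr1_CTR1D300 minus Dctr1_Con 111. The interaction had 1 negative call with the replicate block and with slide as a fixed or random block. The block ended none of the 51 calls of named members. With a single spot the value changed sign for RPL21B (-0.24), RPL41B (-0.10) and RPS6A (-1.07) in Dctr1_CTR1D300 minus Dctr1_Con, and for RPL41A (-0.26), RPL41B (-0.38), RPS0B (0.02) and RPS23A (-0.19) in WT_CTR1 minus WT_Con. Median centring and quantile normalisation kept the sign of the members' median in all comparisons but Dctr1_Con minus WT_Con (-0.04, and 0.01 with quantile normalisation). The all-gene median of Dctr1_CTR1D300 minus WT_CTR1 was -0.11, and -0.03 with median centring. All members were above background and below saturation on all 12 arrays.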

Other observations

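Across the 136 members, the change with CTR1D300 and the change with CTR1 were alike (Pearson r = 0.82 across genes, which are not independent replicates and share the slide columns). With the same spot in both comparisons r was 0.94 and 0.87. With the lower-numbered spot for 1 construct and the higher-numbered for the other it was -0.27. Without RPL41A and RPL41B these values were 0.62, 0.81 and 0.86, and -0.36. The likeness of the construct effects thus held only where the spot was shared. Of the 18 members that fell with CTR1, 10 rose with CTR1D300 and 8 were not called, and all 4 that rose with CTR1 rose with CTR1D300. Of all 136 members 72.8% rose with CTR1D300, against 24.0% of all genes. Among the 4, only RPL14B rose with CTR1 by both spots.

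Of the 10 single-copy members not called in Dctr1_CTR1D300 relative to Dctr1_Con, RPS2 (0.19), RPS3 (0.13), RPS31 (0.19) and RPP0 (0.29) were among those not called relative to WT_CTR1 either (0.17, 0.28, 0.25 and 0.23). They were named after their values were seen. RPL3, the single-copy gene of a protein at the peptidyl transferase centre, was at -0.12 ± 0.09 relative to Dctr1_Con (adjusted p = 0.305) and rose by 0.55 ± 0.09 relative to WT_CTR1 (adjusted p = 0.000383). Its probe was at 3.76, 3.61 and 3.42 in Dctr1_CTR1D300 and 3.82, 3.63 and 3.69 in Dctr1_Con, and at 3.12, 3.09 and 2.92 in WT_CTR1 and 3.77, 3.69 and 3.70 in WT_Con. These are means of both spots, and by spot the change with CTR1 was -0.32 and -1.01.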
